A study of Mus musculus with 10 samples.

Results

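The regions described here are p65 CUT&Tag regions that were called in DMSO-treated RAW264.7 macrophages, were called in no library after lipopolysaccharide (LPS), and were called again in every library that received LPS with skatole. They were selected on the measured peak calls themselves. Peaks of 9 libraries on chromosomes 1 to 19, X and Y were merged where they shared at least 1 bp, and a merged region was a member when it held a peak in at least 1 of 3 DMSO libraries, in 0 of 3 LPS libraries and in 3 of 3 LPS+Skatole libraries. This gave 388 members among 235070 merged regions, or 0.165% of them. The number ranged from 279 to 801 when 1 library was left out. When all lists were cut to equal length, 99 of the 388 (25.5%) were still members. RAW264.7 is a macrophage-like line derived from a tumour that the Abelson leukaemia virus caused in a male mouse. Treatment lasted 12 h in all groups. The DMSO group received the solvent, the LPS group DMSO plus LPS, and the LPS+Skatole group LPS plus skatole, a methylated indole that gut bacteria make from tryptophan. The methods give an LPS dose for polarising this line in general, and name no dose for the CUT&Tag cultures. Each library was made from 200000 cells of this 1 line, for which no genetic change is named, and nothing states that the 3 libraries of a group came from separate cultures, so their spread may be technical. The labels name a p65 antibody and the methods name an antibody against phosphorylated p65, so the form that was captured is not known here. A Blank sample without primary antibody was not analysed here, and no value was corrected for it.

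p65, encoded by Rela, is a subunit of NF-κB that carries a transcription activation domain. In a resting macrophage most of it is held in the cytoplasm by IκB proteins. When LPS engages its receptor Tlr4, IκB is degraded and p65 moves to the nucleus, where it binds κB sequences at promoters and enhancers, many of which were opened earlier by lineage factors such as PU.1 and C/EBP and by AP-1. In CUT&Tag an antibody brings a transposase to the protein, and the fragments that the enzyme releases are sequenced, so a peak is a place with more fragments than its surroundings.

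Depth differed between the groups. The genome background, the number of fragments expected per position, was 1.09 to 1.40 in the DMSO libraries, 2.23 to 2.34 in the LPS libraries and 2.26 to 2.39 in the LPS+Skatole libraries. The LPS mean was 1.78 times the DMSO mean and the groups did not overlap (exact two-sided permutation test, p = 0.1, the smallest that 3 libraries against 3 can give), and the LPS+Skatole mean was 1.02 times the LPS mean, with overlapping libraries (exact permutation test, p = 0.5). The lists held 37551 to 43450 peaks in DMSO, 55637 to 63498 in LPS and 78136 to 80153 in LPS+Skatole libraries. Of 10 macrophage markers, 8 had a peak within 3 kb of a gene end in all 9 libraries, against 2 of 10 T cell, 2 of 10 B cell, 1 of 10 hepatocyte and 1 of 10 fibroblast markers.

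A small part of the members touched an annotated promoter. A window of 250 bases before a transcription start in RefSeq (GRCm38.p6, the assembly that browsers call mm10) overlapped 26 of the 379 members on chromosomes with such windows, or 6.86%, against 4.39% of all merged regions there and 36.0% of the regions called in at least 1 DMSO library and in all LPS and LPS+Skatole libraries. These 26 members met 32 windows. Windows of 1 member can share bases, as those of Phlpp1 and Gm20753, Hs2st1 and Selenof, and Rpl36al and Mgat2 do, so counts of windows are also given by member, and some windows reach beyond their member. In 3 of the windows, those of Pacsin2 (a protein that bends membranes), Lpin3 (a phosphatidate phosphatase) and Hfe (a regulator of iron uptake), the same 9 letters TGACTCAGC were found. These letters fit both the AP-1 sequence TGANTCA and the antioxidant response element TGACNNNGC, which overlap in them. They were searched for after the windows had been read, on both strands, and 0.390% of all 32817 windows hold them. The windows are shown because these letters, which stand in capitals, were rare among all windows. Sequences are written 5′ to 3′ on the strand of the gene, and the starts used for Pacsin2, Ptprc and Tmem141 lie inside the annotated extent of the gene.

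Pacsin2, chr15:83447881-83448130, minus strand: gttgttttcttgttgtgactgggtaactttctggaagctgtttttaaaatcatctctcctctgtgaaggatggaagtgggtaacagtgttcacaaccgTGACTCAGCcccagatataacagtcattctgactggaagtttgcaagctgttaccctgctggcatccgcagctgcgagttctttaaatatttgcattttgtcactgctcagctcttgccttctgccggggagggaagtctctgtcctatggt

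Lpin3, chr2:160880420-160880669, plus strand: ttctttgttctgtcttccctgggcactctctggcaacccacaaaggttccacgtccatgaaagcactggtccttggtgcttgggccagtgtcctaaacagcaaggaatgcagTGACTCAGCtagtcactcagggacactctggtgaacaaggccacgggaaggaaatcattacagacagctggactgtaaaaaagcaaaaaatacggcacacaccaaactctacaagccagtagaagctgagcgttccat

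Hfe, chr13:23710855-23711104, minus strand: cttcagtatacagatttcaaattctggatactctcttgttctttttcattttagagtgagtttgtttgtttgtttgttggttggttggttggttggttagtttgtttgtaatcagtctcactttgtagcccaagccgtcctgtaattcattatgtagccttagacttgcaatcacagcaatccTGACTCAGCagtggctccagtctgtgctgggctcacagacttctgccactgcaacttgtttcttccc

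TGANTCA was found in 5 of the 32 windows (15.6%), from 5 members, against 6.75% of all windows, with the letters inside the member itself in 4 of the 5. TGACNNNGC was found in 7 (21.9%), from 6 members, against 10.2%. In the 26 windows at regions that all 3 LPS+Skatole libraries held and no other library did, each of these 2 motifs was found in 3 (11.5%). One of the windows with the second motif was that of Ptprc, which encodes CD45, the tyrosine phosphatase on the surface of all leukocytes. The κB consensus was found in none of the 32 windows, against 7.25% of all windows and 7.69% of those 26. None of the 32 held the TATA box (TATAAA), the E-box (CACGTG) or the cyclic AMP response element (TGACGTCA) either. Of all windows, 12.4%, 6.02% and 1.55% hold these, and of those 26, 19.2%, 7.69% and 0%. The ETS motif was found in 4 of the 32 (12.5%), from 3 members, against 6.90% of all windows and 0% of those 26. The PU.1 motif was found in 2 (6.25%), from 2 members, against 10.6% and 15.4%. Of the 9019 windows at regions called in all LPS and LPS+Skatole libraries and at least 1 DMSO library, 15.7% held the ETS motif. This share was above the 12.5% at members. The PU.1 motif was in 11.2% of those 9019, the AP-1 sequence in 4.53% and the antioxidant response element in 11.9%. The motifs absent from the 32 were found there in 9.26%, 5.81%, 8.85% and 3.04%, in the order named above. Each motif found is a match of letters, and the absence of a match says only that the letters are not in the windows searched. The part of the Ptprc window inside its member is shown with TGACNNNGC in capitals.

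Ptprc, chr1:138175127-138175298, minus strand: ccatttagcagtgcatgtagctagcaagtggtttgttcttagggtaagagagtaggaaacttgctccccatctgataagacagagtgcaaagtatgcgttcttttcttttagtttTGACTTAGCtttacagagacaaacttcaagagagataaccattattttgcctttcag

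The other common letters were those of GC-rich promoters. GGGCGG, the GC box, was found in 16 of the 32 windows, from 12 members, in 8 of which the letters lay inside the member itself, against 32.7% of all windows and 60.5% of the 9019 windows that overlapped regions called in 3 of 3 LPS, 3 of 3 LPS+Skatole and at least 1 DMSO library. CCAAT was found in 13 (40.6%), from 10 members, against 33.8% of all windows and 37.0% of those 9019. In the 26 windows at regions that only the LPS+Skatole libraries held, the shares were 34.6% for GGGCGG and 23.1% for CCAAT. The windows of Phlpp1, a phosphatase of the kinase Akt (the part inside its member), of Tmem141, a membrane protein gene (the first of its 2 windows, which lie 3 bp apart), and of Ndufb4, a subunit of respiratory complex I, are shown for the 3 members with the tallest summits among those with a window, with GGGCGG and CCAAT on either strand in capitals.

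Phlpp1, chr1:106171619-106171773, plus strand: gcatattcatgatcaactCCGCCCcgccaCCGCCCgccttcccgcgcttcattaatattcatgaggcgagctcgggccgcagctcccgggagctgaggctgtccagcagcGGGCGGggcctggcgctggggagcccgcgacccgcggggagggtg

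Tmem141, chr2:25622006-25622255, minus strand: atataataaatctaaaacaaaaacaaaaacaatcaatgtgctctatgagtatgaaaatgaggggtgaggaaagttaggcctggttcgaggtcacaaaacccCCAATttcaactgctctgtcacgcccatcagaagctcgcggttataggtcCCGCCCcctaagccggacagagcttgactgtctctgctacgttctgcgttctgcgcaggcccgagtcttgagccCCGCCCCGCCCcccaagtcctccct

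Ndufb4, chr16:37654369-37654618, minus strand: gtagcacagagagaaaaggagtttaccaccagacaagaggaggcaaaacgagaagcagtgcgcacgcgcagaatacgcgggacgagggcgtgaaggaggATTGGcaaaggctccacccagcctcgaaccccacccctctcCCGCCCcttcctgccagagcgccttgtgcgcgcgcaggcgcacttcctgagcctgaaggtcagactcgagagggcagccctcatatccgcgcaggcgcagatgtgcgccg

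DMSO peaks were sparse in the members. Of the 388 members, 277 had a peak in 1 DMSO library (71.4%), 90 in 2 (23.2%) and 21 in 3 (5.41%). DMSO 1, the library with the lowest background, had a peak in 144 members, DMSO 2 in 189 and DMSO 3 in 187. The members were 32.6% of the 1191 regions called in 0 LPS and 3 LPS+Skatole libraries, a pattern that 0.507% of all regions showed. Among regions called in all LPS+Skatole libraries, the share with a DMSO peak was 49.2% where 1 LPS library had a peak, 67.6% where 2 had one and 93.6% where 3 had one. DMSO peaks were thus least frequent among the regions that lacked every LPS peak. All 3 DMSO libraries and no LPS library had a peak in 96 regions (0.0408% of all regions), of which 21 were called in 3, 32 in 2, 22 in 1 and 21 in 0 LPS+Skatole libraries. The opposite pattern, a DMSO peak with 3 of 3 LPS and 0 of 3 LPS+Skatole peaks, held for 102 regions (0.0434% of all regions). They were 38.8% of the 263 regions called in 3 LPS and 0 LPS+Skatole libraries, a share above the 32.6% of the members. When every list was shortened to its 37551 peaks of highest −log10 p, the counts were 243 members and 204 regions of the opposite pattern. The gap between them was thus smaller in lists of equal length. The counts were 410 and 91 after thinning to the lowest depth, and 291 and 61 at a −log10 p of at least 10. With regions built from summits they were 442 and 164.

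**Figure D1:**
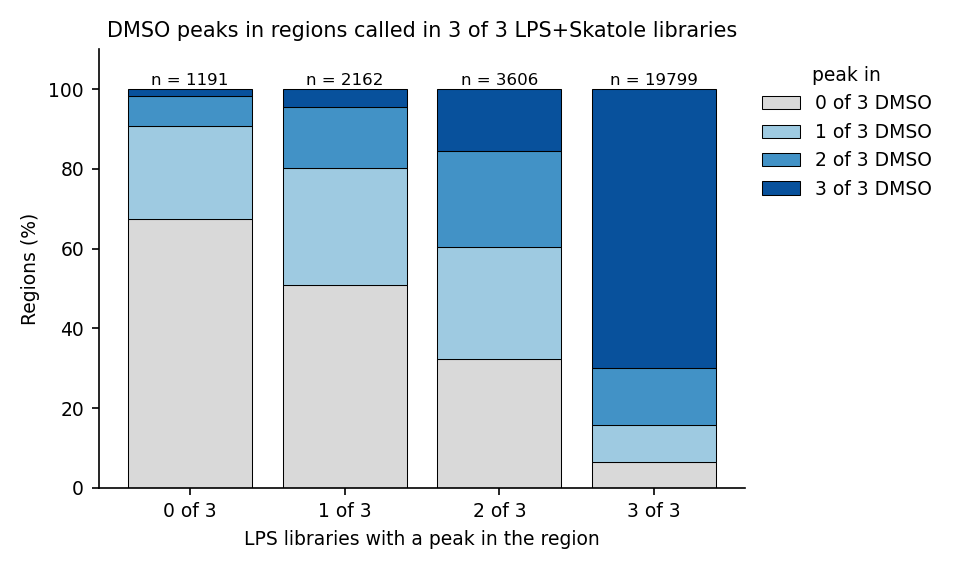
Regions called in all 3 LPS+Skatole libraries, grouped on the horizontal axis by how many LPS libraries had a peak, with the percentage of regions by number of DMSO libraries with a peak on the vertical axis. The leftmost bar holds the 388 members in its 3 blue parts, 32.6% of 1191 regions, and the share with a DMSO peak reaches 93.6% in the rightmost bar.

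To see whether the pattern held in libraries that took no part in choosing the regions, 1 LPS and 1 LPS+Skatole library were left out at a time. Each of the 9 selections required a DMSO peak, no peak in the remaining LPS libraries and a peak in both remaining LPS+Skatole libraries, and held 1227 to 1420 regions. The left-out LPS libraries had a peak in 36.7%, 38.9% and 43.6% of them, a mean of 39.8% ± 3.51 (SD, n = 3). The left-out LPS+Skatole libraries had a peak in 56.1%, 55.8% and 57.8%, a mean of 56.6% ± 1.06 (SD, n = 3). The groups did not overlap and differed by 16.8 points (exact two-sided permutation test over libraries, p = 0.1, the smallest possible). Both shares lay far from the 0% and 100% that the rule sets, and the selections share libraries and regions. Each library also helped to choose regions in the selections that kept it, and the permutations did not repeat the selection. The p-value is therefore descriptive and cannot decide whether skatole restored these regions. The LPS+Skatole lists were also longer than the LPS lists, which raises their share in any set of regions. The difference was 11.2 points in lists of equal length and 16.8 points after all libraries had been thinned to the lowest depth. DMSO peaks could be followed in the same way among the 1191 regions with 0 LPS and 3 LPS+Skatole peaks. Where another DMSO library had a peak, the left-out DMSO library had one in 23.8%, 28.7% and 30.2% of regions, against 7.81%, 12.0% and 11.1% where no other had.

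**Figure D2:**
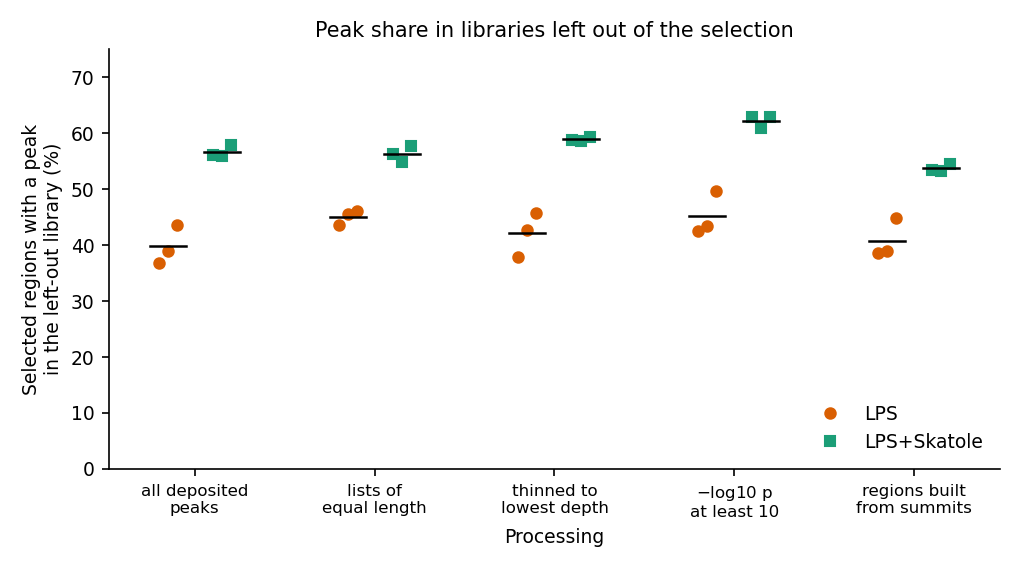
Percentage of selected regions with a peak in a library left out of the selection (vertical axis), under 5 ways of processing (horizontal axis); each point is 1 library and lines are means of 3. With all deposited peaks the LPS libraries lie between 36.7% and 43.6% and the LPS+Skatole libraries between 55.8% and 57.8%, and the groups do not overlap under any of the 5.

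By their medians, the members were moderate peaks. The numbers below are fragments at the summit, recovered from the deposited fold and −log10 p of each peak, and since they come from the calls that chose the members they are given without a test. The median summit count was 30, 29.5 and 32 in the LPS+Skatole libraries and 17, 18 and 19 in the DMSO libraries that had a peak. Relative to the genome background of the library, medians were 12.8, 13.0 and 13.4 in LPS+Skatole and 15.6, 12.9 and 14.0 in DMSO, which overlap. Over all peaks of these lists the medians were 10.3, 10.6 and 10.0 in LPS+Skatole and 16.5, 14.3 and 14.7 in DMSO. The mean over the LPS+Skatole libraries had a median of 13.2 times the genome background over the members (5.30 to 80.6). It was 11.9 times in the 803 regions called in no DMSO, no LPS and all LPS+Skatole libraries. In regions called in all LPS and LPS+Skatole libraries and at least 1 DMSO library it was 29.5 times. By −log10 p, members had a median percentile of 56.7, 57.3 and 59.0 in the LPS+Skatole lists and of 40.1, 41.0 and 41.3 in the DMSO lists. The lists differ in length and the DMSO values cover only members with a DMSO peak, so these percentiles show no change between groups. They were a median of 1072 bp wide (326 to 2960 bp).

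The local background around the members varied. In 172 members (44.3%) the background at the peak was the genome background in all 3 LPS+Skatole libraries, and in 190 (49.0%) it was above it in all 3, up to 29.7 times. Because LPS libraries have no deposited value at a member, the highest summit count that would have stayed uncalled in them was computed from their genome background and the relative local background of the LPS+Skatole peaks, on the assumption that the local background was alike. It was 10 fragments where the background was the genome background, the same limit as in the LPS+Skatole libraries. The rule asks for a call in all 3 LPS+Skatole libraries, so it largely ensures that members lie above the limit. Only the size of the ratio is described here. The mean LPS+Skatole summit was a median of 2.17 times this limit (1.06 to 5.14), and was at least 2 times the limit in 243 members (62.6%) and under 1.5 times in 31. Members above the genome background had taller summits, a median of 17.5 times the genome background against 10.7 times, and lower mean folds over the local background, a median of 5.64 against 7.81. Regions at genome background had a median of 2.45 times the limit and regions above it a median of 2.01 times. An LPS summit just under the limit counts as absent, so a member may still have held fragments in LPS cells.

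**Figure D3:**
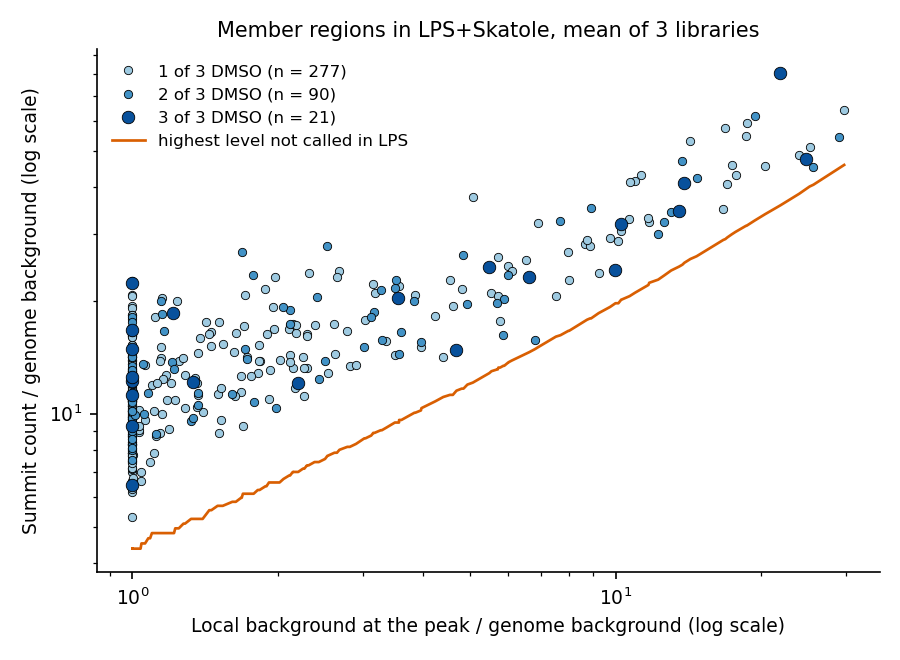
Each point is 1 of the 388 members, with its local background (horizontal axis) and its summit count (vertical axis), both divided by the genome background, as means of 3 LPS+Skatole libraries on log scales; shading gives the number of DMSO libraries with a peak. The line is the highest level that would not be called in LPS at the same local background. Members lie at 1.06 to 5.14 times this level, and the rule, which asks for calls in all LPS+Skatole libraries, largely ensures that they lie above it.

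The most repeatable DMSO peaks were in the members with peaks in all 3 DMSO libraries, of which the 12 with the tallest LPS+Skatole summits are described here. Counts in this and the following paragraphs are not divided by depth. The mean genome background was 1.82 times higher in LPS+Skatole than in DMSO, so a higher count there can reflect depth. The tallest lay at the promoter of Phlpp1 (chr1:106170879-106171773), with 110, 96 and 90 fragments in DMSO 1 to 3 and 197, 142 and 227 in LPS+Skatole 1 to 3. The limit for LPS there was 82 fragments, since the local background was 21.9 times the genome background, and every library exceeded it. Ptprc (chr1:138174358-138175298) had 23, 50 and 55 fragments in DMSO and 69, 40 and 33 in LPS+Skatole. These overlapped, and the limit was 21.7. An intergenic member lay 18346 bp from Alox5ap, which encodes the activating protein of 5-lipoxygenase in leukotriene synthesis. It had 29, 36 and 53 fragments in DMSO and 80, 55 and 90 in LPS+Skatole, with a limit of 46. Divided by the genome background of each library, the groups overlapped at Phlpp1, at Ptprc and at the Alox5ap member.

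Members with little local background stood out more clearly from it. One lay 3574 bp from Ms4a4c, a membrane protein gene of the Ms4a family (chr19:11430820-11432116). It had 9, 12 and 14 fragments in DMSO and 42, 29 and 86 in LPS+Skatole against a limit of 10, and its mean level was 5.08 times the limit. Stxbp5, which encodes the syntaxin-binding protein tomosyn (chr10:9875522-9876847), held 14, 12 and 19 fragments in DMSO and 34, 37 and 46 in LPS+Skatole. A member 10084 bp from Hnf4a, a nuclear receptor of liver and gut (chr2:163582991-163584509), held 14, 21 and 17 in DMSO and 42, 54 and 33 in LPS+Skatole. In these 3 members the counts of all LPS+Skatole libraries were above those of all DMSO libraries, whose depth was lower. Divided by the genome background of each library, the groups overlapped at the Hnf4a member and stayed apart at the Ms4a4c member and Stxbp5.

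By mean level, the other members of this group were closer to the limit than those at Ms4a4c, Stxbp5 and Hnf4a. Ift122, a gene of transport in cilia, held 31, 40 and 32 fragments in DMSO and 45, 68 and 58 in LPS+Skatole, with a limit of 29.3. Fam78a held 36, 51 and 42 in DMSO and 86, 106 and 94 in LPS+Skatole, with a limit of 57.7. Crybg3 held 45, 38 and 23 in DMSO and 47, 85 and 111 in LPS+Skatole, with a limit of 56.3. The region shared by Cfap298, a gene of cilia, and Synj1, a phosphoinositide phosphatase, held 38, 43 and 61 in DMSO and 49, 58 and 62 in LPS+Skatole, with a limit of 45. Zfp369, which encodes a zinc finger protein, held 17, 36 and 33 in DMSO and 86, 49 and 26 in LPS+Skatole, with a limit of 33.3. The member 51269 bp from Nfatc1, a transcription factor that calcium signals activate, held 64, 28 and 37 in DMSO and 75, 160 and 95 in LPS+Skatole, with a limit of 90.7. At Crybg3, Zfp369 and the Nfatc1 member at least 1 LPS+Skatole library lay under the limit, and the local background there differed between these libraries. Divided by the genome background of each library, all LPS+Skatole counts of Fam78a lay above all its DMSO counts. Those of the Cfap298 region lay below all its DMSO counts. At Ift122, Crybg3, Zfp369 and the Nfatc1 member the groups overlapped. Of the 12, Phlpp1, Stxbp5, Ift122 and the members near Ms4a4c and Hnf4a were also members in lists of equal length and after thinning, Fam78a and the Alox5ap member after thinning only, and the other 5 in neither.

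**Figure D4:**
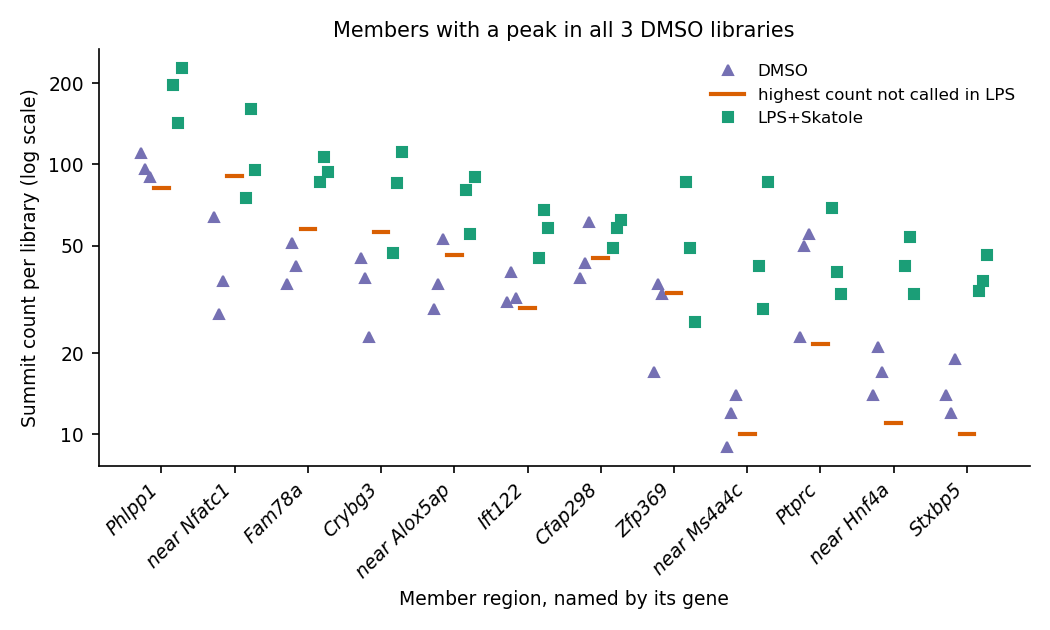
Summit counts per library (vertical axis, log scale) for the 12 members with a peak in all 3 DMSO libraries and the highest LPS+Skatole summits (horizontal axis); triangles are DMSO, squares LPS+Skatole, and the bar is the highest count that would not be called in LPS. At Phlpp1 all 6 counts lie above the bar of 82, and near Ms4a4c the LPS+Skatole counts are 29 to 86 above a bar of 10. Counts are not divided by the genome background of the library, which was lower in DMSO.

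The 8 tallest of the remaining members all lay in raised local background, 14.3 to 29.7 times the genome background. They included the histone methyltransferase gene Dot1l (chr10:80763050-80764139), with 139, 120 and 144 fragments in LPS+Skatole and 49 in DMSO 2, and Crtc1, a coactivator of CREB (chr8:70425999-70427467), with 157, 102 and 113 and with 21 in DMSO 2. At the promoter shared by Hs2st1, a heparan sulfate sulfotransferase, and Selenof, a selenoprotein, LPS+Skatole libraries held 169, 168 and 40 fragments and DMSO 2 and 3 held 112 and 118. The limit there was 103, and LPS+Skatole 3 lay far under it, with a local background of 7.46 against 98.3 and 94.9 in the others. The others were Ndufb4, the neighbours Tmem141 and Fcna (the latter encodes ficolin A of the complement system), Usp6nl, which acts on the GTPase Rab5, a member 28625 bp from Pcf11 and 1 lying 125222 bp from A430005L14Rik. Ndufb4 (chr16:37653807-37654934) held 108, 148 and 126 fragments in LPS+Skatole and 54 in DMSO 1, with a limit of 72.3. The Tmem141 and Pcf11 members were also members in lists of equal length and after thinning, those at Ndufb4, Hs2st1 and A430005L14Rik after thinning only, and those at Dot1l, Crtc1 and Usp6nl in neither.

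The members with the highest −log10 p were others. By their weakest LPS+Skatole −log10 p, a ranking chosen after the values had been seen, the first was a member 309 bp outside Plcb2, a phospholipase C of haematopoietic cells (chr2:118728970-118729568). It had 66, 62 and 60 fragments in LPS+Skatole, a weakest −log10 p of 47.8, and 26 and 19 fragments in DMSO 2 and 3. Its limit was 13.7. The second, 41080 bp from Ccdc54, had 64, 62 and 69 fragments in LPS+Skatole and 16 and 19 in DMSO 1 and 2. The Pacsin2 member (chr15:83447709-83448578), whose sequence is shown above, had 82, 80 and 103 fragments in LPS+Skatole and 33 in DMSO 3, with a weakest −log10 p of 40.6. Next to Sla, an adaptor protein of blood cells, and within Tg, the thyroglobulin gene (chr15:66801151-66802067), 60, 48 and 56 fragments stood in LPS+Skatole and 11 and 26 in DMSO 1 and 3. A member 30477 bp from Pth, the parathyroid hormone gene, had 43, 43 and 72 fragments in LPS+Skatole and 11 and 15 in DMSO 2 and 3, and 1 lying 19152 bp from Uspl1 had 44, 47 and 51 in LPS+Skatole and 31 in DMSO 3. Among these 6 the LPS+Skatole libraries differed most at the Pth member. All of them but the Pacsin2 member, which was a member in neither, were also members in lists of equal length and after thinning. The member at Lpin3 (chr2:160880408-160881209) held 44, 35 and 17 fragments in LPS+Skatole and 22 in DMSO 2, and that at Hfe (chr13:23710740-23711470) held 54, 30 and 32 in LPS+Skatole and 25 in DMSO 3.

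At the other end, the members just inside the threshold were at Alg9, Cep152 and Oxr1. Their weakest LPS+Skatole peaks had −log10 p of 5.03, 5.08 and 5.08, and the weakest count was 11 fragments in each, 1 above the limit of 10. Just outside the rule, regions with 1 LPS peak included 1 at Eif4ebp2, an inhibitor of translation initiation, which was called in LPS 3 alone with 194 fragments, beside 219, 191 and 265 in LPS+Skatole and 90, 102 and 122 in DMSO. The others were at Ndufs7, a complex I subunit, called in LPS 1 with 256 fragments beside 324, 253 and 322 in LPS+Skatole, and at Calr, the calcium-binding chaperone calreticulin, called in LPS 2 with 91 beside 227, 304 and 55. In each of these regions the 1 called LPS library had a count within the LPS+Skatole range, while the other 2 LPS libraries had no called peak.

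Genes of 10 lists were looked up in the members, since p65 is known for inflammatory genes and the study concerned inflammation, glutathione and oxidative phosphorylation. Members lay in or within 3 kb of 291 protein-coding genes, 1.59% of the 18283 genes that any merged region reached. None of the 56 inflammatory genes with a region had a member, nor did any of the 20 genes of NF-κB subunits and inhibitors, 33 interferon-stimulated, 24 alternative activation, 44 MAPK and AP-1, 40 lysosome and autophagy or 16 aryl hydrocarbon receptor genes. Members were found at 4 of 63 glutathione and Nrf2 target genes (6.35%), 2 of 73 oxidative phosphorylation genes (2.74%) and 1 of 29 macrophage lineage genes (3.45%). Over all lists together they were found at 7 of 381 genes (1.84%), near the 1.59% of all genes. Gene length moved with having a member. The median length was 17169 bp over all protein-coding genes, 57185 bp over genes with a member and 14690 bp over the glutathione and Nrf2 list. The shortest medians were 7131 bp (oxidative phosphorylation) and 7240 bp (inflammatory), and the longest of a list was 26291 bp (NF-κB subunits and inhibitors).

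Among genes of glutathione and Nrf2, the factor that induces antioxidant genes, members lay at Slc7a11, Mgst2, Akr1b3 and Osgin1. Slc7a11 encodes the cystine transporter that supplies glutathione synthesis. Its member (chr3:50431979-50433944) held 28, 25 and 44 fragments in LPS+Skatole and 19 in DMSO 3, with a limit of 11. Mgst2, a microsomal glutathione transferase, held 24, 27 and 17 in LPS+Skatole and 11 in DMSO 3. A member 2152 bp from Akr1b3, the aldose reductase gene, held 17, 22 and 19 in LPS+Skatole and 17 in DMSO 3. Osgin1, an oxidative stress response gene, held 60, 71 and 115 in LPS+Skatole and 30 in DMSO 3, with a limit of 66.3 that LPS+Skatole 1 did not reach. The DMSO peak of all 4 came from DMSO 3 alone, and of the 4 only Slc7a11 was also a member in lists of equal length. After thinning Slc7a11 and Akr1b3 were members, and Mgst2 and Osgin1 were not.

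Oxidative phosphorylation genes with a member were Ndufb4, described above, and Ndufa4, a protein of the respiratory chain. Ndufa4 (chr6:11900389-11901801) held 20, 16 and 55 fragments in LPS+Skatole and 12 in DMSO 1, so LPS+Skatole 3 was more than 2 times higher than the other LPS+Skatole libraries. In the macrophage lineage list the only gene was Cebpa, which encodes the myeloid factor C/EBPα. It held 26, 32 and 43 fragments in LPS+Skatole (chr7:35120381-35121128) and 17 in DMSO 1, with a limit of 18. Both Ndufa4 and Cebpa were members after thinning but not in lists of equal length. Genes with more than 1 member were Snx30, Rtn4, Mindy1, Fbxl5, Etv6 and Dlgap1, with 2 each. Etv6, an ETS family repressor of blood formation, held 37, 25 and 22 fragments in 1 of its members and 28, 32 and 36 in the other.

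With a window of 3 kb, members lay inside genes more often than at their ends. By the strongest LPS+Skatole summit, 83 of the 388 members (21.4%, 95% exact binomial interval 17.4% to 25.8%) were within 3 kb of the end of a protein-coding gene, 190 (49.0%) elsewhere in a gene and 115 (29.6%) intergenic. With a window of 10 kb the order turned, with 169 members (43.6%) near a gene end and 134 (34.5%) elsewhere in a gene. The intervals cover counting error only. Of the 803 regions called in no DMSO, no LPS and all LPS+Skatole libraries, 12.7% (10.5% to 15.2%) were near a gene end. Of the 18528 regions called in all LPS and LPS+Skatole libraries and at least 1 DMSO library, 45.2% (44.5% to 45.9%) were. The members thus stood between these 2 patterns in share. Regions of 1 genome are not replicates, so the intervals do not test this order. The local background moved with location, as 15.1% of members at genome background and 28.4% of those above it were near a gene end. Within the same background the order of the patterns stayed, with 9.69%, 15.1% and 38.1% near a gene end at genome background and 16.1%, 28.4% and 51.6% above it. The median distance from a member's summit to the closest transcription start was 15650 bp, against 19540 bp for regions without a DMSO peak and 6238 bp for the regions called in LPS too. A summit lay within 1 kb of a start in 37 of 379 members (9.76%).

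**Figure D5:**
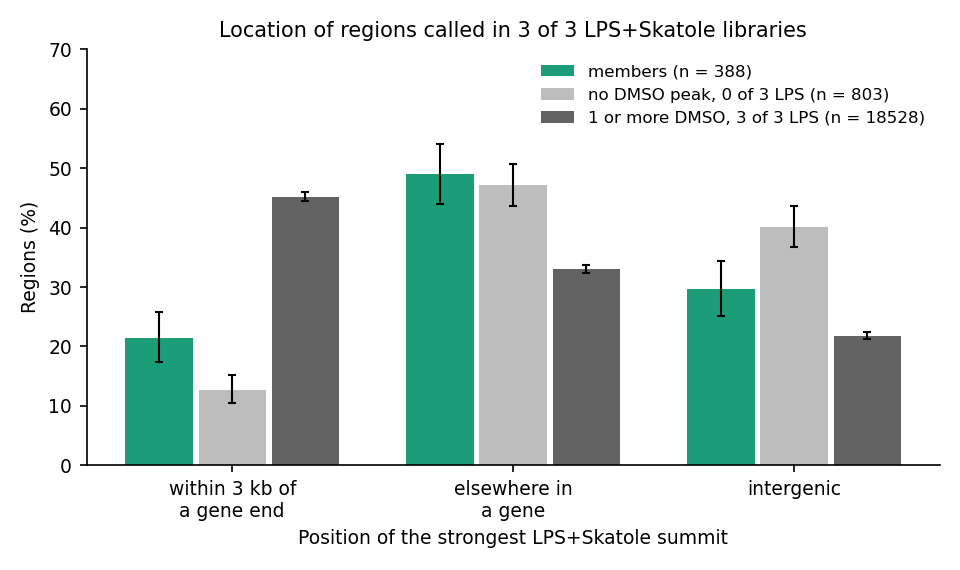
Percentage of regions (vertical axis) by the position of the strongest LPS+Skatole summit (horizontal axis) for 3 patterns, all called in 3 of 3 LPS+Skatole libraries; error bars are 95% exact binomial intervals, which cover counting error only. Within 3 kb of a gene end lie 21.4% of the members, 12.7% of regions with neither DMSO nor LPS peaks, and 45.2% of regions called in LPS too.

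Most members had called peaks nearby. The closest LPS peak of any library was a median of 1861 bp away, and 127 members (32.7%) had one within 1 kb and 278 (71.6%) within 5 kb. For the regions without a DMSO or LPS peak the median was 2515 bp, with 27.4% within 1 kb and 67.1% within 5 kb. A peak outside the member but within 10 kb of it was found for 57.0% to 63.1% of members in the DMSO libraries, 71.4% to 75.5% in the LPS libraries and 81.7% to 83.8% in the LPS+Skatole libraries, an order that the lengths of the lists share. Of the 12 members with peaks in all DMSO libraries, Phlpp1 had an LPS peak 530 bp away, Crybg3 200 bp and the Nfatc1 member 133 bp, while the closest to Zfp369 was 36289 bp away. Members were found on every chromosome but Y, from 5 on X to 37 on chromosome 2, and 0.0935% (X) to 0.249% (chromosome 19) of the regions of a chromosome were members, apart from Y. In 19 cases a member started within 100 kb of the previous one, so most stood alone. No promoter window was used for the 9 members on chromosome 18, nor was a start distance computed for them.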

How the data were processed

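p65 CUT&Tag peaks of 9 libraries (3 each of DMSO, LPS and LPS+Skatole) were analysed. The authors called peaks in each library, and the deposited narrowPeak values are a score, a fold (a ratio of summit to local background), a −log10 p and a −log10 q, with the summit's offset as another deposited value. The submitters' processing notes name mm10, fastp 0.20.1, HISAT2 2.1.0 and StringTie 2.0 without their roles. The peak caller, duplicate handling and use of a control were not given in the sources used here. Every list ends at a −log10 p of about 5. Total reads were not used here, so depth was read from the genome background.

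Summit counts were recovered from the deposited fold, taken as (count + 1)/(background + 1), and the deposited −log10 p, taken as a Poisson tail. They came out whole within 0.05 for over 99.99% of peaks in each list. Recovery, merging and the held-out shares were tested on simulated data. The genome background of a library was the lowest recovered background of its list, at which 53.7% to 62.0% of the peaks stood. For a region with several peaks in a library the one of highest −log10 p was used.

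The members and gene lists were chosen with earlier results of these data known. Named members were those with 3 DMSO peaks (at most 12, by mean LPS+Skatole summit over genome background), the 8 next by that measure, those at genes of the lists, and those at the threshold, 3 inside and 3 outside; members ranked by weakest −log10 p and those at the printed windows were added after the values were seen. A further gene list is not reported here. Genes were the 21887 protein-coding genes of RefSeq (GRCm38.p6), and motifs were searched on both strands of 250-base windows before starts. Tests were exact permutation tests over libraries, for which 3 against 3 cannot give a p under 0.1. Alternatives were lists of equal length, thinning to the lowest genome background, a −log10 p of at least 10, regions built from summits (250 bp on each side), leaving out each library, other windows and a replicate block. Analyses used Python 3.11.15, numpy 2.4.6, pandas 2.3.3 and scipy 1.17.1.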

Additional observations from a re-analysis of the deposited data

How the results depend on the processing

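The number of members was 243 in lists of equal length, 410 after thinning, 291 at a −log10 p of at least 10, 442 with regions built from summits and 389 with all sequences. It ranged from 279 to 801 when 1 library was left out: 697 to 787 without an LPS library, 772 to 801 without an LPS+Skatole library and 279 to 320 without a DMSO library. Without an LPS or LPS+Skatole library the rule asks for fewer libraries, and without a DMSO library fewer can supply the DMSO peak. The same regions were not kept. Of the 388 members, 99 (25.5%) were members in lists of equal length and 204 (52.6%) after thinning. The held-out difference stayed positive, at 11.2, 16.8, 16.9 and 13.0 points in these first 4 settings and 10.6 to 17.0 points without 1 library, each with p = 0.1 by exact permutation test. As a paired comparison with a replicate block it was 16.8 points (exact sign-flip permutation test, p = 0.25, the smallest 3 pairs allow). None of these permutations repeated the selection of regions, so the p-values of the held-out difference are descriptive. With the block the genome background ratio was 1.81 for LPS over DMSO, 1.02 for LPS+Skatole over LPS and 1.84 for LPS+Skatole over DMSO. No p under 0.05 was possible with or without the block, which rests on shared numbers only, and deviations of same-numbered libraries correlated at -0.0117 to 0.0111 over regions called in all libraries. Leaving out each library in turn, an alternative added after the lists were seen, gave ratios of 1.66 to 1.87 for LPS over DMSO, 1.01 to 1.03 for LPS+Skatole over LPS and 1.69 to 1.90 for LPS+Skatole over DMSO.

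The share of members near a gene end was 9.28% with a 1 kb window, 43.6% with a 10 kb window and 20.6% in lists of equal length. List genes with a member were 7 within 3 kb, 9 within 10 kb and 13 by nearest gene. The median summit was 13.2 times the genome background and 8.67 times the local background. Depth limits what absence means: at genome background, a summit of up to 10 fragments in an LPS library, and of 7 or 8 in a DMSO library, would not be called, and no total read number was used to set this against.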
